A study of Homo sapiens with 27 samples.

Results

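The APOBEC3 genes encode DNA cytidine deaminases, and the 7 human members, APOBEC3A, APOBEC3B, APOBEC3C, APOBEC3D, APOBEC3F, APOBEC3G and APOBEC3H, were followed in 2 cancer cell lines given a genotoxic drug, a plant injection, or the combination. Members were taken by their Entrez IDs, and all 7 were found among the 24566 gene rows of the count table. RNA was sequenced in 27 libraries of 9 groups, with 3 replicates in each, after 48 h. A431, an epidermoid carcinoma line, had 5 groups, namely untreated cells, a vehicle control, Compound Kushen injection (CKI, an extract of plant roots) at 1 mg/ml, doxorubicin, and CKI with doxorubicin. MDA-MB-231, a breast adenocarcinoma line, had 4 groups, namely untreated cells, CKI at the same dose, 5-fluorouracil (5-FU) at 10 ug/ml, and CKI with 5-FU. Doxorubicin intercalates in DNA and poisons topoisomerase, and 5-FU inhibits thymidylate synthesis and is built into nucleic acids. The labels do not state what the vehicle was, and no vehicle group was given for MDA-MB-231, so the untreated cells of each line served as its control. The labels name 2 doses of doxorubicin without assigning them to samples, so it is not known whether the groups given doxorubicin alone and with CKI received the same dose. The design text of the series calls the replicates biological. Each drug was given to 1 line only, so that drug and line cannot be told apart where the drugs are compared.

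APOBEC3 proteins turn cytosine into uracil in single-stranded DNA. They restrict retroviruses and mobile elements, and APOBEC3A and APOBEC3B, which can enter the nucleus, are the members best known as mutators of tumour genomes. Uracil left in DNA is removed by the glycosylase UNG, while DUT keeps dUTP from being built in. Several members are also known as interferon-stimulated genes.

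The 7 genes lie side by side in the order given on chromosome 22, all on the forward strand, from 39348746 to 39500072 of GRCh37, a span of 151327 bp. APOBEC3C has 4 exons in its canonical transcript, APOBEC3A and APOBEC3H have 5, APOBEC3D and APOBEC3F have 7, and APOBEC3B and APOBEC3G have 8. Because the family arose by duplication, the sharing of 150-base stretches, the length of a read, was checked in the annotated transcripts. APOBEC3B shared 5.72% of its stretches with other members, APOBEC3D 4.81%, APOBEC3A 4.14%, APOBEC3F 3.75% and APOBEC3G 2.15%, and no stretch of APOBEC3C or APOBEC3H was shared. How reads that fit more than 1 gene were counted is not given in the sources used here. An annotated readthrough gene, not analysed here, also covers 2104 bp of the exons of APOBEC3D, and its inclusion raised the shared stretches of that gene to 78.24%, which makes the APOBEC3D values uncertain. APOBEC3B exons overlap 244 bp of the antisense gene APOBEC3B-AS1, whose mean level was at most 0.308 CPM in the groups described below.

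Total counts ranged from 17757206 to 22809339 per library, and 3 counts over the untreated MDA-MB-231 libraries, the floor used for a gene listed at 0, correspond to 0.0468 CPM. CPM are counts scaled to a common library size after TMM normalization over the 27 libraries. They give shares of a library, so that a change in RNA per cell would not be seen. The summed line markers matched the labels, with summed CPM of EGFR, KRT5, KRT14, CDH1, TP63 and SFN of 8090 to 8870 in untreated A431 and 389 to 520 in untreated MDA-MB-231. Those of VIM, CD44, ZEB1, AXL, CAV1 and SPARC set the lines apart less, at 3860 to 4410 in untreated MDA-MB-231 and 1480 to 1600 in untreated A431. Of these 6, 4 were called higher in MDA-MB-231 and 2 were not called, where 41.7% of all genes tested were called as defined below. Untreated MDA-MB-231 replicate 1 stood apart from its group in the relation of level to GC content (Spearman's rho across genes -0.68), and replicates 1 and 3 of the A431 vehicle control lay apart on opposite sides (-0.60 and 0.66). The GC content of the members was 48.3% to 51.8%, near the median of 48.4% over all rows.

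In untreated cells the family was more abundant in A431 than in MDA-MB-231. Summed RPKM, which divide CPM by transcript length and allow genes to be compared, were 128.4 ± 4.37 in A431 and 40.6 ± 1.62 in MDA-MB-231 (SD, n = 3). APOBEC3B made up 56.1% of this sum in A431 and 52.2% in MDA-MB-231, and APOBEC3C, a cytoplasmic and nuclear member, 25.9% and 35.2%. APOBEC3G, a restriction factor of HIV, made up 14.9% and 6.94%, but this share rests on the length of its canonical transcript. With all exons joined its level in untreated A431 was 5.55 RPKM in place of 19.1. On canonical lengths the other 4 members each contributed less than APOBEC3G.

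**Figure D1:**
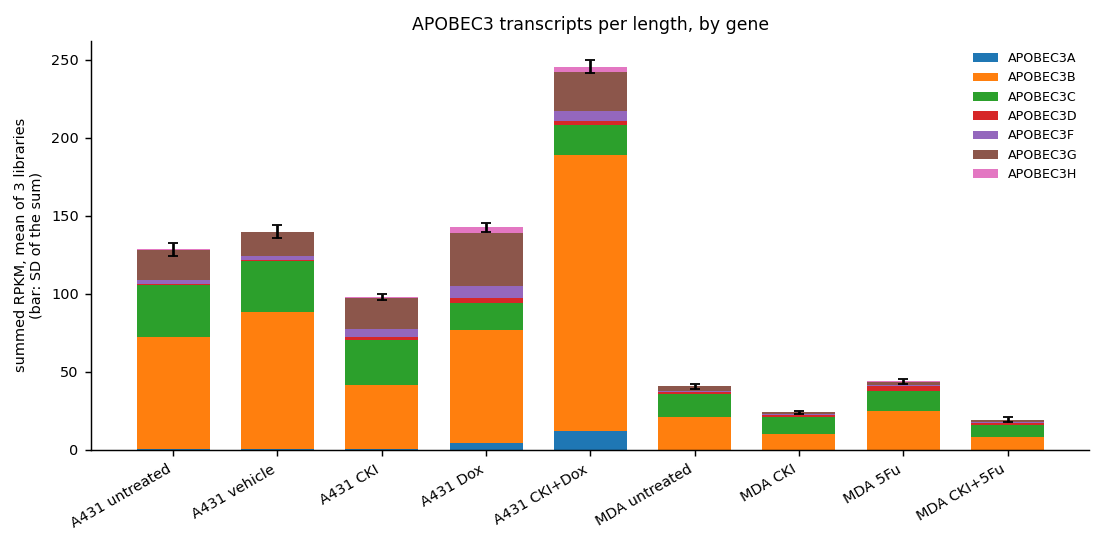
Summed RPKM of the 7 APOBEC3 genes (y axis) in the 9 groups (x axis, MDA for MDA-MB-231), each bar the mean of 3 libraries, coloured by gene, with the SD of the sum. The sum was highest in A431 cells given CKI and doxorubicin, 245.5, of which APOBEC3B was 72%, and lowest in MDA-MB-231 cells given CKI and 5-FU, 19.2.

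Of the 7 members, 7 differed between the untreated lines by edgeR's quasi-likelihood test, where 41.7% of all genes tested did. This count is a description, since APOBEC3A and APOBEC3H entered the test through treated groups. A gene is called here where its Benjamini-Hochberg adjusted p is under 0.05 and its log2 fold change is over 1 in size. Shares of all genes called count both directions. APOBEC3G was higher in A431 by 2.77 on the log2 scale (SE 0.11, adjusted p = 1.32e-17), APOBEC3F by 2.14, APOBEC3B by 1.77 and APOBEC3C by 1.23. APOBEC3D went the other way and was lower in A431 by a log2 difference of -1.44 (SE 0.24, adjusted p = 5.1e-06). APOBEC3A had 7, 8 and 0 counts in the untreated A431 libraries and 0 in all 3 untreated MDA-MB-231 libraries, so that its level was at least 5.68-fold higher in A431 against a floor of 3 counts over the group. APOBEC3H had 10 counts in all in A431 and 2 in MDA-MB-231, a ratio of 5.68 (95% exact interval 1.21 to 53.3, counting error only), and its call was lost without A431 untreated replicate 2 or 3 or MDA-MB-231 untreated replicate 2 or 3, and with the replicate number as a block (log2 difference 1.64, adjusted p = 0.178).

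**Figure D2:**
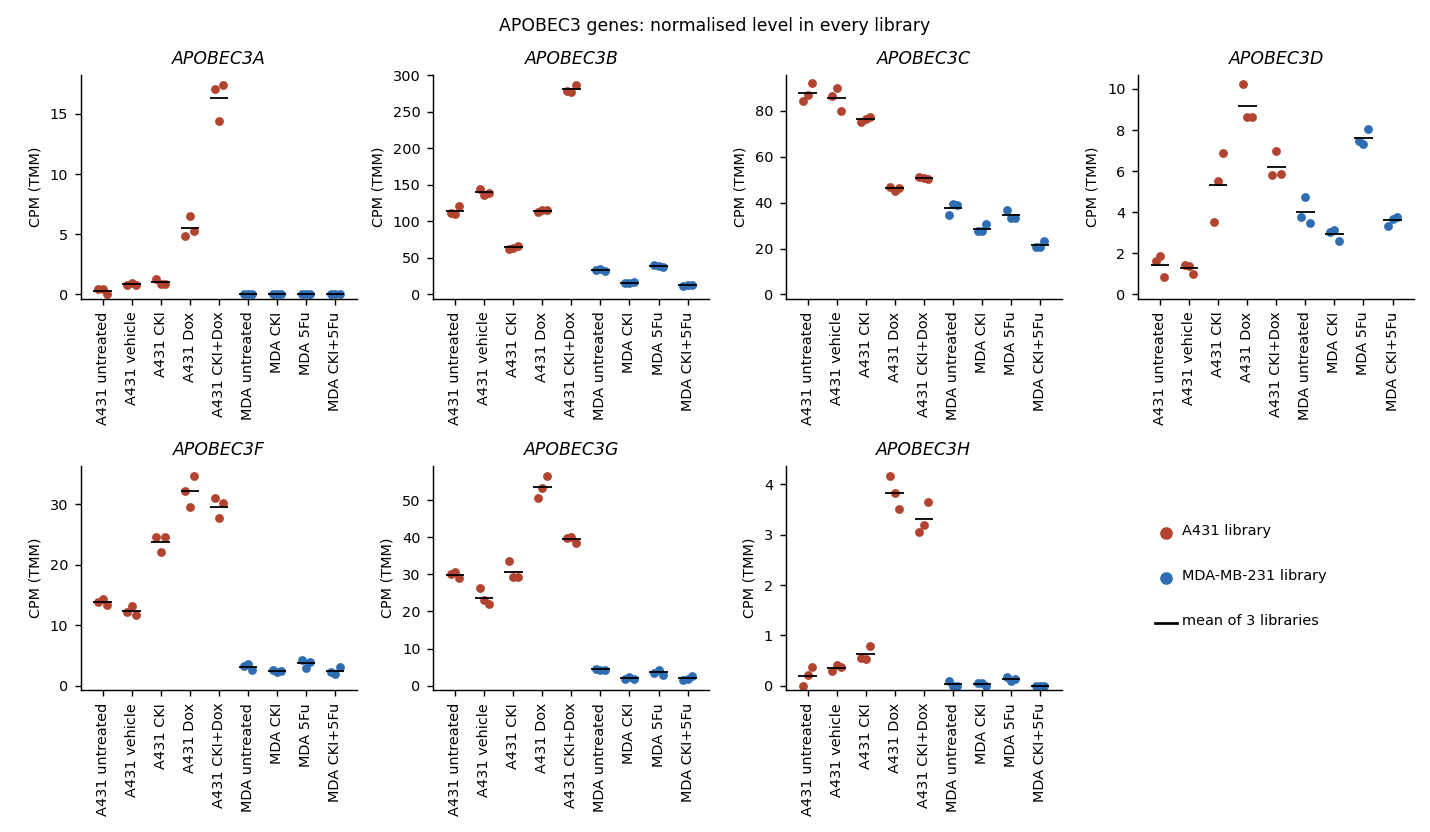
CPM (y axis, a separate scale for each gene) of each APOBEC3 gene in the 27 libraries, by group (x axis). Points are libraries, red for A431 and blue for MDA-MB-231 (MDA), and lines are means of 3. APOBEC3B stood at 277 to 287.5 CPM in A431 cells given CKI and doxorubicin, above every other group.

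Doxorubicin raised 4 of the 7 members in A431 cells, where 37.3% of all genes tested were called, 61.6% of them higher. APOBEC3A, APOBEC3D, APOBEC3F and APOBEC3H were higher than in untreated cells, and APOBEC3B, the most abundant member, was not called. The median log2 fold change of the 7 was 1.19, against 0.017 over all genes tested. Untreated libraries held at most 8 counts of APOBEC3A and 6 of APOBEC3H, so these genes entered the test through other groups. APOBEC3H, with at most 14 counts in a CKI library, passed the low-count filter only through the groups given doxorubicin, where it was high. Its adjusted p-values and calls, in every comparison that holds it, are therefore descriptions. APOBEC3A also passed the filter in vehicle and CKI libraries. The count of members called is given as a description in every comparison that holds these genes.

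APOBEC3A stood at 0.418, 0.44 and 0 CPM in the untreated A431 libraries and at 4.84, 6.50 and 5.28 CPM with doxorubicin. The groups did not overlap. Its log2 fold change was 4.18 (SE 0.32, adjusted p = 4.09e-11), and against the vehicle control, where APOBEC3A was at 0.75, 0.963 and 0.818 CPM, it was 2.66. Between the vehicle control and untreated cells, APOBEC3A was called, 1 of the 7 members, where 2.54% of all genes tested were (log2 fold change 1.52, SE 0.48, adjusted p = 0.013). Fold changes in this comparison ran with GC content (Spearman's rho across genes -0.58), and genes of 48% to 52% GC had a median of 0.011. That call was lost without untreated replicate 3, the library at 0 (0.99), without vehicle replicate 2 (1.42, adjusted p = 0.0504), and in the fit of those 2 groups alone (1.49).

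APOBEC3H, the most polymorphic member, moved from 0, 0.22 and 0.371 CPM in untreated A431 cells to 4.16, 3.82 and 3.52 CPM with doxorubicin. All treated libraries lay above all untreated ones, and the log2 fold change was 4.22 (SE 0.35, adjusted p = 1.69e-10). It was 3.35 against the vehicle control and 4.96 without untreated replicate 3. The window around its start site is shown because APOBEC3H had the largest fold change with doxorubicin, though within the SE of APOBEC3A, and it is the only member in the promoter table used here. It was taken from RefSeq (GRCh38.p14, chr22:39096994-39097293, forward strand, 250 bases before the start and 50 after), with capitals for a stretch of 23 bases that occurs 2 times.

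APOBEC3H: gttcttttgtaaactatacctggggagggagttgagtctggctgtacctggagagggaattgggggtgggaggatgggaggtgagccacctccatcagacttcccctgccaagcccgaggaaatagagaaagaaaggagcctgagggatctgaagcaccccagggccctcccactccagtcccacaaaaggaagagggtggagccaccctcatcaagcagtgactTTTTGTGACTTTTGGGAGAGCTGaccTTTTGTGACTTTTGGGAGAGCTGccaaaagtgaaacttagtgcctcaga

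The window was searched on both strands for the interferon response element (GAAA, any 2 bases, GAAA), the E2F site TTTCCCGC, the CHR element TTTGAA, the TATA box TATAAA and the AP-1 site TGACTCA. No match was found, while 3.57%, 1.63%, 15.2%, 11.5% and 4.95% of 35116 promoters of the same length held them, in that order. This says only that these letters are not in this window.

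APOBEC3D, a restriction factor of retroviruses, had 1.61, 1.87 and 0.866 CPM in untreated cells and 10.2, 8.63 and 8.64 CPM with doxorubicin. Again the groups did not overlap (log2 fold change 2.61, SE 0.23, adjusted p = 3.74e-10). APOBEC3F, its neighbour and also a restriction factor, went from 13.9, 14.3 and 13.3 to 32.2, 29.6 and 34.7 CPM (1.19, SE 0.082, adjusted p = 6.78e-12). APOBEC3G, at 30.1, 30.6 and 28.9 CPM without and 50.5, 53.2 and 56.5 CPM with doxorubicin, missed the fold threshold at 0.81 (SE 0.075, adjusted p = 1.09e-09), although it was called against the vehicle control at 1.13.

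APOBEC3C was lower with doxorubicin. Its level was 84.5, 86.8 and 92.3 CPM in untreated cells and 47.0, 45.2 and 46.5 CPM with doxorubicin. The log2 fold change of -0.95 (SE 0.059, adjusted p = 1.14e-12) fell just short of the fold threshold. It was called without the low-count filter (-1.01) and with offsets for GC content and transcript length (-1.15), and was -0.61 with library size alone. APOBEC3B did not pass the test. It had 112, 109.9 and 121 CPM in untreated cells and 113, 116 and 116 CPM with doxorubicin, and the ranges overlapped (log2 fold change -0.02, SE 0.057, adjusted p = 0.74). Its sign turned with the scaling, to 0.069 with DESeq2 and 0.32 with library size alone, where the median of all genes was 0.361. Against the vehicle control the log2 fold change of APOBEC3B was -0.32. All doxorubicin libraries lay below the vehicle libraries, which stood at 136.1 to 143.9 CPM. The vehicle control itself stood above untreated cells in APOBEC3B (0.30, SE 0.057, adjusted p = 2.44e-04), short of the fold threshold.

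CKI alone changed members of A431 cells in opposite directions. APOBEC3A, APOBEC3D and APOBEC3H, 3 of the 7 members, were called higher than in untreated cells, where 22.4% of all genes tested were called. APOBEC3D reached 3.52, 5.53 and 6.86 CPM, all above the untreated libraries (log2 fold change 1.75, SE 0.25, adjusted p = 1.26e-06). APOBEC3A at 1.33, 0.895 and 0.90 CPM (1.72) and APOBEC3H at 0.561, 0.526 and 0.787 CPM (1.54) also passed, but neither did against the vehicle control (0.20, adjusted p = 0.64, and 0.67, adjusted p = 0.18), and APOBEC3H lost its call without untreated replicate 1 (0.98).

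APOBEC3B stood at 62.6, 63.5 and 67.1 CPM with CKI, below every untreated and vehicle library. The log2 fold change was -0.92 (SE 0.058, adjusted p = 2.03e-12), short of the fold threshold, and -1.22 against the vehicle control, where it was called. APOBEC3F stood at 24.6, 22.2 and 24.5 CPM (0.69, SE 0.084, adjusted p = 1.54e-07), also short of it. APOBEC3C changed by -0.29 (adjusted p = 9.85e-05), and APOBEC3G by -0.05 (adjusted p = 0.59), with a sign that turned under library size alone (0.060).

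With CKI and doxorubicin together, APOBEC3B no longer stood at the untreated level. It reached 279, 277 and 287.5 CPM, against at most 144 CPM in any library of another group. Of the 7 members, 5 were called higher than in untreated cells, where 35.5% of all genes tested were called, 61.2% of them higher. APOBEC3B rose by 1.29 on the log2 scale (SE 0.056, adjusted p = 2.09e-15), and by 0.99 against the vehicle control, where it missed the fold threshold. APOBEC3A reached 17.1, 14.5 and 17.4 CPM, a log2 fold change of 5.76 (SE 0.27, adjusted p = 5.58e-15), which was 4.24 against the vehicle control. APOBEC3H (4.02, or 3.15 against the vehicle control and 4.77 without untreated replicate 3), APOBEC3D (2.07) and APOBEC3F (1.09) were also called, the last not with offsets for GC content and length (0.93), while APOBEC3C stood at -0.79 and APOBEC3G at 0.40.

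**Figure D3:**
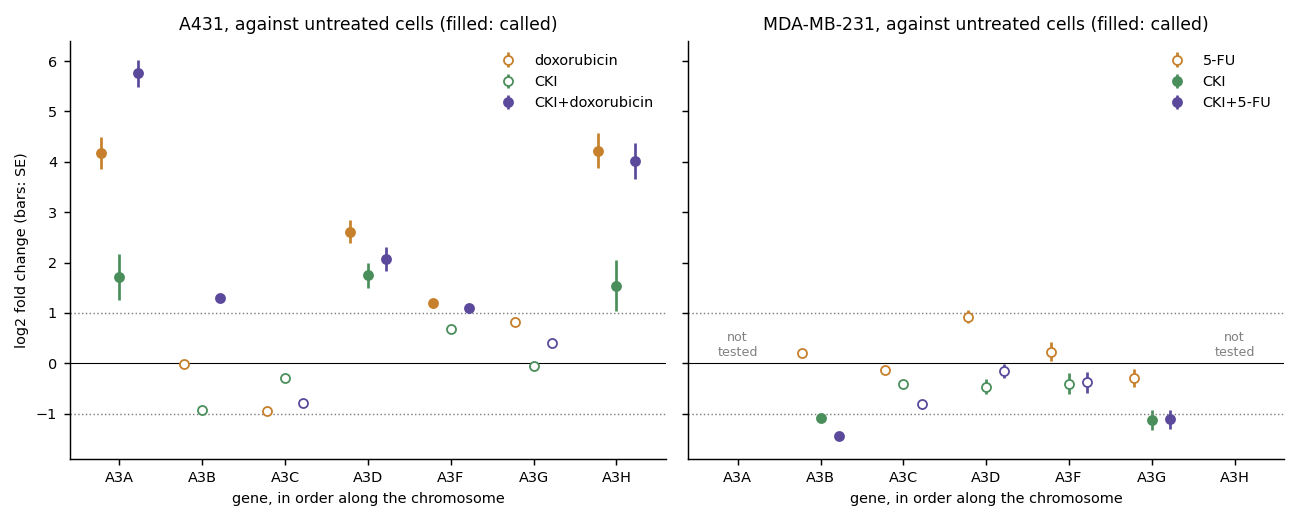
Log2 fold changes against untreated cells (y axis) of the members in their order along the chromosome (x axis, A3 for APOBEC3), for A431 on the left and MDA-MB-231 on the right. Bars are SE, filled points are called, and dotted lines mark a log2 fold change of 1 in size. APOBEC3A and APOBEC3H stood highest with doxorubicin, at 4.18 and 4.22, and APOBEC3B was called only in the combination among the A431 treatments shown.

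Added to doxorubicin, CKI raised 2 of the 7 members, APOBEC3A by 1.58 (SE 0.15, adjusted p = 5.45e-09) and APOBEC3B by 1.31 (SE 0.056, adjusted p = 6.1e-15), where 14.9% of all genes tested were called. In both genes every combination library lay above every doxorubicin library. APOBEC3G went from a mean of 53.4 to 39.5 CPM (log2 fold change -0.42, adjusted p = 2.62e-05) and APOBEC3D from 9.17 to 6.20 CPM (-0.54, adjusted p = 0.0076), short of the fold threshold. APOBEC3F (-0.10) and APOBEC3H (-0.20) did not pass the test, and APOBEC3C was at 0.16. Added to CKI, doxorubicin raised APOBEC3A by 4.04, APOBEC3H by 2.48 and APOBEC3B by 2.21 (SE 0.059, adjusted p = 7.45e-19), 3 of the 7 members, where 25.7% of all genes tested were called.

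The effect of CKI with doxorubicin differed from its effect without it in 3 of the 7 members by the test of the interaction, where 19.5% of all genes tested did. This test takes both groups given doxorubicin as equal in dose, which the labels do not state. APOBEC3B was lower with CKI alone and rose with CKI on doxorubicin, and the difference was 2.23 on the log2 scale (SE 0.081, adjusted p = 2.37e-15). It stayed between 2.09 and 2.53 under the 26 alternatives run for it. APOBEC3D and APOBEC3H rose with CKI alone and not with CKI on doxorubicin, with differences of -2.29 (SE 0.30, adjusted p = 8.16e-07) and -1.74 (SE 0.54, adjusted p = 0.0087). That of APOBEC3H was -0.87 when the vehicle control replaced the untreated cells and was then not called. APOBEC3A gave a difference of -0.14 (SE 0.46, adjusted p = 0.82), which turned to 1.38 with the vehicle control. All these comparisons share the untreated, CKI or doxorubicin libraries.

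**Figure D4:**
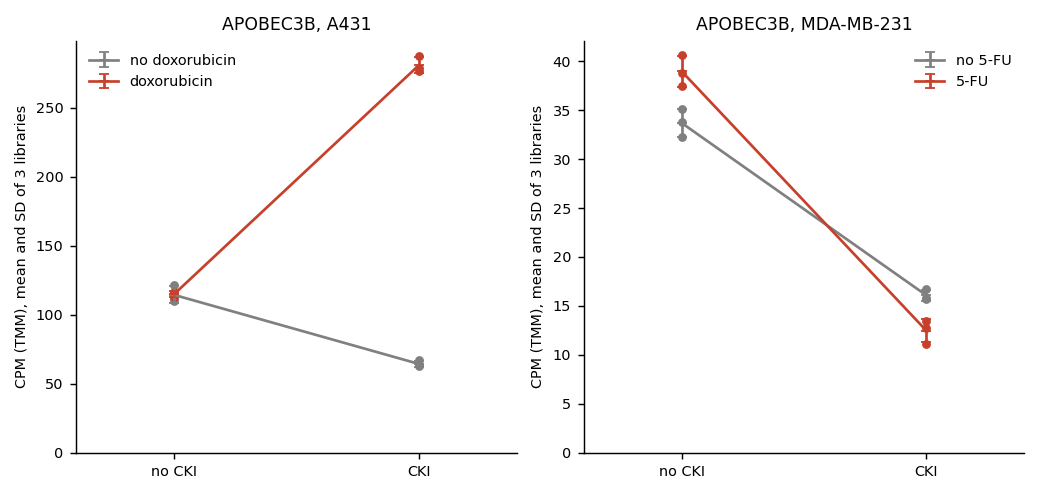
APOBEC3B level in CPM (y axis, from 0) without and with CKI (x axis), in A431 on the left and MDA-MB-231 on the right, in grey without and in red with the drug. Points are libraries and bars the mean and SD of 3. In A431 the mean went from 114.5 to 64.4 CPM without doxorubicin and from 115 to 281 CPM with it, and in MDA-MB-231 from 33.7 to 16.1 CPM without 5-FU and from 39 to 12.5 CPM with it.

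In MDA-MB-231 cells, 5 of the 7 members could be tested. APOBEC3A was at 0 counts in 11 libraries and at 1 count in the other, of CKI and 5-FU, and APOBEC3H had 2 counts in the untreated group, 2 with CKI, 9 with 5-FU and 0 with CKI and 5-FU. The ratio of APOBEC3H between 5-FU and untreated cells was 4.73 (95% exact interval 0.979 to 45.0, counting error only).

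No member was called with 5-FU by edgeR's quasi-likelihood test, where 13.3% of all genes tested were. At an unadjusted p under 0.05 there were 2, and DESeq2 also called 0. The adjusted p alone also passed 2 of the 5, where 57.1% of all genes tested passed it. APOBEC3D was the member nearest to a call, at 3.76, 4.75 and 3.49 CPM in untreated cells and 7.45, 7.34 and 8.06 CPM with 5-FU. The groups did not overlap, and the log2 fold change was 0.92 (SE 0.13, adjusted p = 6.31e-05), which was called without untreated replicate 2 (1.07) or with library size alone (1.06). APOBEC3B had 33.8, 35.1 and 32.2 CPM without and 40.6, 38.8 and 37.4 CPM with 5-FU (0.21, SE 0.075, adjusted p = 0.031). APOBEC3C (-0.13), APOBEC3F (0.23) and APOBEC3G (-0.29) did not pass the test.

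CKI lowered APOBEC3B and APOBEC3G in MDA-MB-231 cells, 2 of the 5 members tested, where 5.96% of all genes tested were called. Of the 13999 genes tested, 309 were called lower. APOBEC3B fell to 15.7, 15.8 and 16.8 CPM (log2 fold change -1.08, SE 0.078, adjusted p = 1.29e-06). APOBEC3G, at 4.65, 4.29 and 4.28 CPM in untreated cells, fell to 1.87, 2.37 and 1.82 CPM (-1.13, SE 0.19, adjusted p = 7.6e-04). Neither gene overlapped between the groups. APOBEC3C (-0.41) and APOBEC3D (-0.46) passed the adjusted p alone.

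With CKI and 5-FU, APOBEC3B was at 11.2, 12.8 and 13.5 CPM, its lowest level in any group. It fell by 1.43 against untreated cells (SE 0.08, adjusted p = 8.63e-08) and APOBEC3G by 1.11, 2 of the 5 members, where 9.04% of all genes tested were called. The call of APOBEC3G was lost without CKI and 5-FU replicate 1 (-0.96) and with library size alone (-0.97). Against 5-FU, APOBEC3B fell by 1.64 (SE 0.079, adjusted p = 3.02e-08) and APOBEC3D by 1.08 (SE 0.13, adjusted p = 2.92e-05), again 2 of the 5, where 9.77% were called. Against CKI alone, 0 of the 5 were called by edgeR and by DESeq2, where 3.81% of all genes tested were. An unadjusted p under 0.05 was found in 2, APOBEC3B (-0.36) and APOBEC3C (-0.41). Both also passed the adjusted p alone, where 42.1% of all genes tested did.

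The interaction of CKI and 5-FU called 0 of the 5 members by edgeR and by DESeq2, where 6.84% of all genes tested were called. An unadjusted p under 0.05 was found in 3 members, and 2 passed the adjusted p alone, where 31.4% of all genes tested did. For APOBEC3B the difference was -0.57 (SE 0.11, adjusted p = 0.0025), with changes of -1.64 with and -1.08 without 5-FU. APOBEC3D gave -0.62 (SE 0.19, adjusted p = 0.028). Neither reached the fold threshold.

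Between the lines, the effect of CKI differed in 3 of the 7 members, where 17.6% of all genes tested did. APOBEC3D rose in A431 and not in MDA-MB-231, a difference of 2.29 (SE 0.31, adjusted p = 7.39e-07), and APOBEC3F (1.17) and APOBEC3G (1.15) also lay higher in A431, the former 0.98 and not called with offsets for GC content and length. For APOBEC3B, which was lower with CKI in both lines, the difference was 0.23 (SE 0.088, adjusted p = 0.034), and -0.050 with the vehicle control. The effect of doxorubicin in A431 minus that of 5-FU in MDA-MB-231 was called in 3 of the 7, APOBEC3D (1.75), APOBEC3G (1.16) and APOBEC3F (1.02), where 30.4% were, and the last 2 were lost with the offsets (0.90 and 0.74). APOBEC3F also lost this call without A431 doxorubicin replicate 3, A431 untreated replicate 3, MDA-MB-231 5-FU replicate 2, or MDA-MB-231 untreated replicate 1 or 2. Treatment effects on APOBEC3A could not be compared between the lines, since its untreated, CKI and 5-FU libraries of MDA-MB-231 held 0 counts, and it is among the 7 only as a gene that entered the fit.

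Of 12 genes of uracil repair, 3 fell with doxorubicin in A431 and 0 rose, a smaller share than the 37.3% of all genes called, and the median log2 fold change was -0.394. Those that fell were UNG (-1.25), APEX1 (-1.04), the nuclease that cuts at abasic sites, and DUT (-1.04). UNG stood at 88.9, 89.2 and 103 CPM in untreated cells, at 37.2, 41.7 and 38.5 CPM with CKI, and at 13.6, 14.02 and 13.6 CPM with CKI and doxorubicin. The last group lay below all others, and the log2 fold change against untreated cells was -2.78 (SE 0.079, adjusted p = 1.14e-18). DUT fell from a mean of 183.7 to 30.4 CPM in the combination (-2.60, SE 0.066, adjusted p = 1.83e-19). APEX1 and XRCC1 also fell there (-1.47 and -1.11), while TDG, another uracil and thymine glycosylase, rose (1.23). In the combination 5 of the 12 were thus called, where 35.5% of all genes were. With CKI alone in A431, 4 of the 12 fell and 0 rose, where 22.4% of all genes were called. Mean XRCC1 was 54.17 CPM in untreated cells, 21.68 with CKI, 43.97 with doxorubicin and 25.22 in the combination. Mean APEX1 was 315, 127, 156.5 and 114 CPM in that order. Mean DUT was 50.37 CPM with CKI alone. Low levels of these genes were therefore not particular to the combination. With 5-FU, 0 of the 12 were called in MDA-MB-231 by edgeR, against 13.3% of all genes. Of these 12, 11 had an unadjusted p under 0.05, and 10 passed the adjusted p alone, where 57.1% of all genes tested did. CKI lowered 1 of the 12 there, UNG (-1.03), against 5.96% of all genes. Of the other deaminase family genes, 4 could be tested, and CDA, which deaminates free cytidine, rose with 5-FU from a mean of 26.3 to 53.5 CPM (1.02, SE 0.13, adjusted p = 3.22e-05). The untreated libraries ranged from 19.7 to 31.5 CPM, and the mean of CDA with CKI alone was 62.5 CPM. In A431 its mean was 86.8 CPM in untreated cells and 148.2 CPM with CKI. DCTD, ADAT2 and ADAT3 were not called with either drug, and APOBEC1, APOBEC2 and APOBEC4 were at a mean of at most 0.215 CPM in the untreated, doxorubicin and 5-FU groups.

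**Figure D5:**
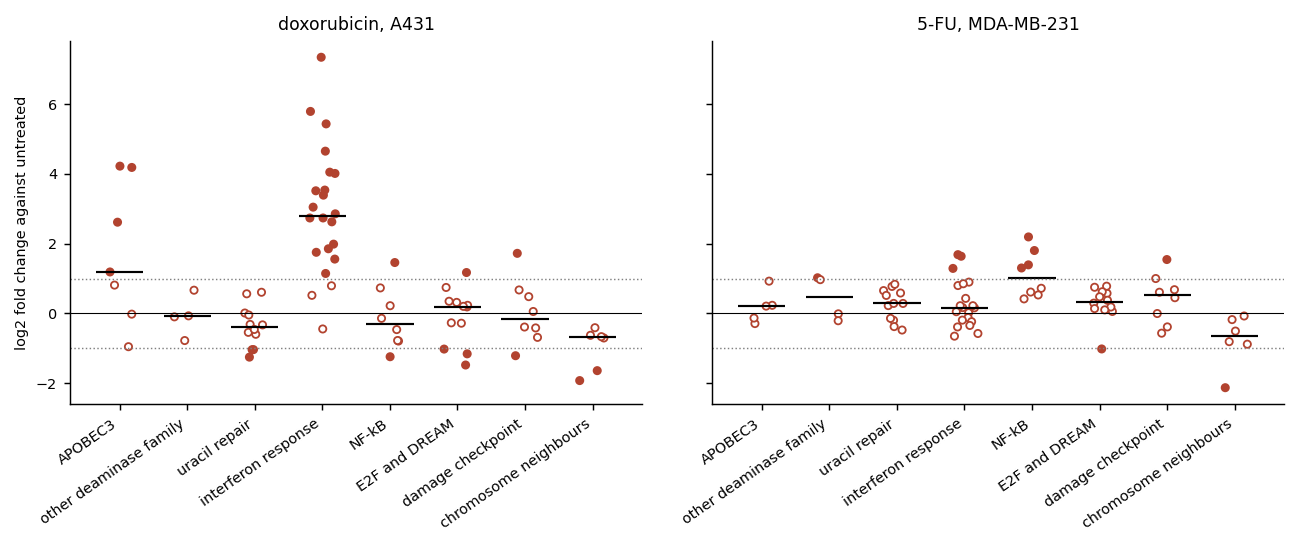
Log2 fold changes against untreated cells (y axis) of the tested genes of 8 lists (x axis), with doxorubicin in A431 on the left and 5-FU in MDA-MB-231 on the right. Points are genes, filled where called, black lines are list medians and dotted lines mark a log2 fold change of 1 in size. Of these lists, the interferon response stood highest with doxorubicin, with a median of 2.79, and at 0.164 with 5-FU.

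Genes of the interferon response rose together with doxorubicin. Of the 22 listed, 19 rose and 0 fell in A431, where 37.3% of all genes were called, with a median of 2.79. MX2 (5.43, SE 0.086, adjusted p = 7.04e-23), IFIT2 (4.01) and ISG15 (3.51), antiviral effectors, had the smallest adjusted p-values. With CKI and doxorubicin 20 rose and 1 fell, where 35.5% of all genes were called. Against doxorubicin alone, 0 were called higher and 3 lower there, where 14.9% of all genes were called, and the median was -0.417. The summed level of the 22 was 7280 to 7500 CPM with doxorubicin and 5200 to 5340 CPM in the combination. With CKI alone 1 rose and 2 fell, a smaller share than the 22.4% of all genes. IFNB1, the interferon beta gene, was at 0 in the untreated A431 libraries and at 1.06 ± 0.257 CPM with doxorubicin (SD, n = 3). With 5-FU in MDA-MB-231, 3 of 20 tested rose, a share near the 13.3% of all genes called. IRF7 was among them (1.64), while ISG15 (0.90) and BST2 (-0.57) were not called. With CKI on 5-FU, 10 of the 20 fell, where 9.77% of all genes were called. Of the 13999 genes tested, 632 were called lower.

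In the lists of NF-kB, E2F and DREAM complex, damage checkpoint and neighbouring genes, the share called with doxorubicin was below the 37.3% of all genes. TNFAIP3 (1.46) rose, BIRC3 (-1.24) fell and NFKB1 (-0.79) was not called among 8 NF-kB genes, of which 4 rose with 5-FU, where 13.3% of all genes were called, led by BIRC3 (1.80), TNFAIP3 (2.19) and RELB (1.39). Of 12 E2F and DREAM complex genes, 1 rose and 3 fell with doxorubicin, RBL1 (-1.48), RB1 (-1.16) and TFDP1 (-1.02), and with 5-FU RBL2 fell (-1.02) while LIN54 (0.78) and TFDP1 (0.62) were not called. Of 8 damage checkpoint genes, CDKN1A rose (1.72) and CHEK1 fell (-1.21) with doxorubicin, where GADD45A stood at 0.67, and CDKN1A rose with 5-FU (1.54), where GADD45A stood at 1.00 and MDM2 at 0.61, neither of them called. Among 6 genes that flank the APOBEC3 cluster on the chromosome, 2 fell with doxorubicin, RPL3 (-1.92) and SYNGR1 (-1.64), 0 rose, and NPTXR was at -0.67. With 5-FU PDGFB fell (-2.13), and RPL3 (-0.88) and CBX7 (-0.51) were not called.

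Markers of leukocytes, where several members are abundant, were also counted. Of 9 markers, 4 (LYZ, MS4A1, PTPRC and TYROBP) were at 0 counts in untreated A431 cells and none was with doxorubicin. In the 3 that could be tested, PTPRC and LYZ rose from 0 counts and CD14 was not called (-0.10). The summed level was 7.47 to 8.96 CPM without and 9.92 to 11.7 CPM with the drug, and 6.35 to 7.75 CPM with CKI and doxorubicin. PTPRC was at 1.32 ± 0.196 CPM with doxorubicin and 1.60 ± 0.383 CPM in the combination (SD, n = 3). In the combination 2 of the 3 tested markers rose and 1, CD14, fell, where 35.5% of all genes tested were called. Their part in the APOBEC3 results was not tested.

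The genes whose pattern was most like that of a member were ranked by Pearson's r of log2 CPM over the 27 libraries, after centring within each line, among 13374 genes tested in both lines. These coefficients are descriptions, since the libraries share treatments. AAR2 (0.916), ATP6V1B2 (0.877) and EMP3 (0.854) were nearest to APOBEC3B, and CYB561 (0.981), DMTN (0.941) and CAPNS1 (0.939) to APOBEC3C. For APOBEC3D they were LONRF3 (0.94), MAP1LC3B (0.937) and TCP11L1 (0.929), and for APOBEC3F SERPINE2 (0.919), APOBEC3D (0.918) and LONRF3 (0.915). DHX58 (0.912), TNFSF10 (0.90) and TRIM22 (0.889) were nearest to APOBEC3G. APOBEC3B and APOBEC3C, the most abundant members in untreated cells of both lines, had an r of 0.105 with each other.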

How the data were processed

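The authors trimmed paired-end reads with Trim Galore 0.3.7, aligned them to hg19 with STAR 2.5.3a, and deposited raw counts per gene, per the labels. The counting tool and annotation are not given in the sources used here. Of 24566 rows, 24422 matched a symbol by Entrez ID. The APOBEC3A_B row, with counts identical to APOBEC3A, stayed in the fits and was not counted as a member. Every pair of replicates differed by more than sampling noise, but not evenly. Untreated MDA-MB-231 replicate 1 gave the highest chi-square per degree of freedom, 75.0 and 86.6 against replicates 2 and 3. Replicates 2 and 3 gave 2.73 with each other.

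Counts were tested with edgeR 4.0.16 in R 4.3.3 (TMM, filterByExpr, glmQLFit, glmQLFTest), per line or over all 27 libraries, with Benjamini-Hochberg adjustment over all genes. SE is the fold change over the root of F. RPKM used canonical transcript lengths. The fits were also run on simulated counts, with the same spread for every gene and as many genes raised as lowered. The data are less even, so that run says nothing about outlying libraries or scaling, and its outcome is not reported here. The members and lists were chosen with earlier results of these data known. Named genes are all members, every uracil repair and other family gene where a count turns on it, the 3 of smallest adjusted p per list and drug, and the 3 most alike genes. IFNB1 and PTPRC were added after their values were seen. CKI and drug against CKI, and CKI between lines, were also added then. Alternatives were DESeq2 1.42.0, other scaling, filters, thresholds, controls, sample sets, blocks and GC and length offsets. Results for some listed genes are not reported here.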

Additional observations from a re-analysis of the deposited data

Results flagged for a closer look

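The effect of CKI in A431 cells differed with and without doxorubicin in APOBEC3B (2.23 on the log2 scale), APOBEC3D (-2.29) and APOBEC3H (-1.74), by the test of the interaction. APOBEC3B changed by -0.92 with CKI alone and by 1.31 with CKI on doxorubicin. The difference of APOBEC3H rests on 10 counts in untreated cells and was not called with the vehicle control (-0.87). It is a description, since APOBEC3H passed the low-count filter only through the groups given doxorubicin. The labels do not state that both of these groups received the same dose.

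The effect of CKI differed between A431 and MDA-MB-231, by the test of the difference, in APOBEC3D (2.29), APOBEC3F (1.17) and APOBEC3G (1.15). With CKI, APOBEC3D changed by 1.75 in A431 and -0.46 in MDA-MB-231, APOBEC3F by 0.69 and -0.40, and APOBEC3G by -0.05 and -1.13.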

How the results depend on the processing

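Of 335 recounts of the members called, 308 stayed within 1.5 times the main count, and of 2012 recomputed fold changes 1897 kept their direction and call, 56 gained one, 30 lost it and 29 turned sign. With the adjusted p alone, the count was 2 with 5-FU, where 57.1% of all genes tested passed, a share given in brackets below. It was 2 in the interaction of CKI and 5-FU (31.4%) and 6 in that of CKI and doxorubicin (57.4%). It was 6 with CKI in A431 (67%), 4 with CKI in MDA-MB-231 (36.2%), 5 with CKI on 5-FU (50.4%) and 2 with 5-FU on CKI (42.1%). It was 6 with doxorubicin on CKI (73.3%), 5 with CKI on doxorubicin (63.6%) and 3 with the vehicle (42.5%). At a fold threshold of 0.58 it was 1 with 5-FU, 1 in the interaction of CKI and 5-FU, 5 with CKI in A431 and 5 with CKI on 5-FU. With at least 10 counts in every library, which removes APOBEC3A and APOBEC3H, it was 1 with CKI in A431, 1 with doxorubicin on CKI, 1 with CKI on doxorubicin, 3 with CKI and doxorubicin, 2 with doxorubicin and 0 with the vehicle. With library size alone it was 1 with 5-FU and 1 with CKI and 5-FU, and it was 0 for the vehicle where only the groups compared were fitted. Leaving out each library in turn gave 0 to 1 with 5-FU (1 without untreated replicate 2), 1 to 2 with CKI and 5-FU and 0 to 1 with the vehicle. Apart from the adjusted p alone, the shares of all genes passing are not given for these settings, so their counts are descriptions.

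Signs turned in small fold changes. APOBEC3B with doxorubicin was 0.069 with DESeq2, 0.068 with RLE factors, 0.15 with at least 10 counts, 0.32 with library size alone, 0.061 with the 2 groups alone and -0.064 to 0.021 leaving out each library. Its difference between the drugs was 0.002 with at least 10 counts, and between the lines for CKI -0.050 with the vehicle. The interaction of APOBEC3A with doxorubicin was 1.38 with the vehicle and -0.59 to 0.39 leaving out each library. APOBEC3G with CKI in A431 was 0.15 with GC and length offsets, 0.14 with these and the block, 0.060 with library size alone and 0.27 against the vehicle. For 5-FU on CKI it was -0.0056 with DESeq2, -0.006 with RLE factors, -0.069 with the offsets, -0.068 with these and the block and -0.20 to 0.17 leaving out each library, and APOBEC3F was -0.17 to 0.17. Leaving out each library gave -0.060 to 0.0205 for APOBEC3C and -0.44 to 0.031 for APOBEC3D with the vehicle, and -0.28 to 3.10 for APOBEC3H between the drugs and -1.02 to 2.36 between the lines for CKI. The cause was not tested.

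Same-numbered libraries did not deviate together (r -0.297 to 0.123 over 33 pairs), and with the replicate block the count of members called was the same in 15 of 16 comparisons, the exception being 6 between the untreated lines. With library size alone, the share of calls that were higher moved from 61.6% to 78.3% with doxorubicin, from 61.2% to 77.5% with CKI and doxorubicin, from 64.7% to 76.7% with doxorubicin on CKI, from 44% to 33% in their interaction, from 45.1% to 59.8% with 5-FU, from 47.4% to 62.7% with CKI and 5-FU, and from 33.2% to 45.8% with 5-FU on CKI.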
